A study of Mus musculus with 8 samples.

Results

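The genes described here are 38 early lineage regulators, most of them transcription factors that set the identity of endoderm, mesoderm, neural tissue, heart, trophoblast or blood in the mouse embryo. They were taken by name from a list, 38 of the 49997 genes with coordinates in a RefSeq gene table of build GRCm38.p6, by a rule that uses no measured value, although earlier results of these data were known when the list was drawn up. A CpG call counted for a gene when it lay inside the gene's span widened by 5 kb on either side. All but a pair code for transcription factors: Fgf5 is a secreted growth factor and Nes an intermediate filament protein of neural precursors. The windows held 2933 calls on 869 reads at 2797 distinct positions, 0.159% of the 1849087 calls of the series.

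The cells were mouse embryonic stem cells in which TET1, TET2 and TET3 had been inactivated. In every group they also carried a piggyBac transposon with a doxycycline-inducible catalytic domain of mouse TET3, linked to an mCherry reporter, and grew in medium with 50 µg/ml ascorbate. The groups were 3 libraries without doxycycline (0 h, replicates A, B and C), 2 after 6 h (A and B) and 3 after 12 h (A, B and C) of 1 µM doxycycline. 5-Hydroxymethylcytosine (5hmC) was read by APOBEC-coupled epigenetic sequencing (ACE-seq), in which 5hmC is glucosylated and unprotected cytosines are deaminated, so that an undeaminated call is 5hmC plus the background of the assay. The labels speak of a stable line and do not say whether it is 1 clone or whether replicates are separate cultures, so the spread between libraries may be technical. What is measured is the catalytic domain on its own, at the level the transposon gives, in cells without the full-length enzymes.

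TET enzymes oxidise methylated cytosine, so 5hmC can appear only where a CpG was methylated. Genes of embryonic lineage regulators commonly have long CpG islands around their starts and often across their exons, and such islands are held free of methylation in embryonic stem cells. In embryonic stem cells many of these genes are kept silent by Polycomb complexes until a lineage is entered. Neither silencing nor methylation was examined here in the TET-deficient line. Because CpG density is a feature these genes share with many others, reads were split into those with 1 to 5 CpGs, called sparse here, and those with 6 or more, called dense.

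The promoter stretches of 3 of the genes show what a dense and a sparse read look like. Each is the RefSeq sequence of the 250 bases before a listed start of the gene in build GRCm38.p6, 5′ to 3′ on the gene's strand, in lower case, with capitals at the CpGs that were called on 1 read of a 12 h library. Otx2 (chr14:48665110-48665359, minus strand) has 14 CpGs, Eomes (chr9:118477939-118478188, plus strand) 8 and Elf5 (chr2:103411848-103412097, plus strand) 2.
Otx2: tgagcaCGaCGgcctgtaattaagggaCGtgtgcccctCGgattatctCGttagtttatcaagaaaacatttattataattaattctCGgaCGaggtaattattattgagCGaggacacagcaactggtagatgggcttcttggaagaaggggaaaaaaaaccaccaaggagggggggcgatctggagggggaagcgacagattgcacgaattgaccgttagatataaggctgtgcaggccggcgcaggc
Eomes: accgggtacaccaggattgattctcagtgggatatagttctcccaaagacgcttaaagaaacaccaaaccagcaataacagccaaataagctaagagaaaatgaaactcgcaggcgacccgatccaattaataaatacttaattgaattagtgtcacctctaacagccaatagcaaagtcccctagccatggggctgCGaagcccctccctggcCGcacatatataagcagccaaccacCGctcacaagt
Elf5: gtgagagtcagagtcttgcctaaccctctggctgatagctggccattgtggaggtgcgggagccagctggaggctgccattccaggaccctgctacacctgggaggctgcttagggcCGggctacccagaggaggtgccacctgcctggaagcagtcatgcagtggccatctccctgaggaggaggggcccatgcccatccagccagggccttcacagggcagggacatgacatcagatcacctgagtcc
The Otx2 read carried 9 CpGs and is dense, with 1 of its 8 calls in the stretch undeaminated. The Eomes read carried 5 CpGs, with 0 of 3 undeaminated in the stretch, and the Elf5 read carried 1, which was deaminated. Promoters were in the table for 27 of the 38 genes. Over the 300 bases from 250 before to 50 after the start, they held a median of 18 CpGs (3 to 37), against 13 for the 17492 protein-coding genes with a promoter there. At least 15 CpGs were found in 19 of the 27 (70.4%), against 47.4% of all such promoters. Calls were few: over all 38 starts that the table lists for these 27 genes, 3 of 24 were undeaminated at 12 h (12.5%).

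The lineage regulators gained 5hmC over 12 h, but less than their libraries. At 0 h, 0 of 250, 2 of 142 and 5 of 191 calls were undeaminated in A, B and C. At 6 h the counts were 6 of 94 in A (6.38%) and 14 of 465 in B (3.01%). At 12 h they were 124 of 797 in A (15.6%, 95% Wilson interval 13.2 to 18.2%), 122 of 728 in B (16.8%, 14.2 to 19.6%) and 62 of 266 in C (23.3%, 18.6 to 28.7%). Every 12 h library lay above every library of the earlier times. The whole libraries came to 22.3, 23.3 and 26.8% at 12 h, so that the genes lay below their own library in 3 of 3, with differences of -6.75, -6.56 and -3.49 percentage points. On average the genes were at 1.34% ± 1.31 at 0 h (SD, n = 3), 4.70% ± 2.38 at 6 h (n = 2) and 18.5% ± 4.17 at 12 h (n = 3). The libraries were at 1.13% ± 0.199, 6.42% ± 0.212 and 24.1% ± 2.36 at these times. The gain from 0 to 12 h was 17.2 points for the genes, 74.7% of the 23.0 points of the libraries. By 6 h the genes had gained 3.35 points and the libraries 5.29. In DNA from a population of cells, a lower share of modified CpGs in every cell and modification in fewer cells cannot be told apart.

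The mean difference from the library at 12 h was -5.60 points ± 1.83 (SD, n = 3), and no test is given for values over the list because the genes were chosen with results of these data known. It was -0.751 points when 1 call per read, drawn at random, was kept, and -2.26 when each read had the same weight. The reads of all libraries fell into 3 groups by the 3rd field of the read name, called runs here. The labels do not say what these groups are. Taken within runs 1, 2 and 3, the difference was -2.90, -8.55 and -5.02 points. Of the 7 undeaminated calls at 0 h, 5 lay on 1 read with 8 CpGs in the window of Sox1 in library C, and the other 2 on reads with a single CpG, at Gata6 and Pou3f1 in library B. Of the 33 genes with calls at 0 h, 30 had 0 undeaminated ones.

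**Figure D1:**
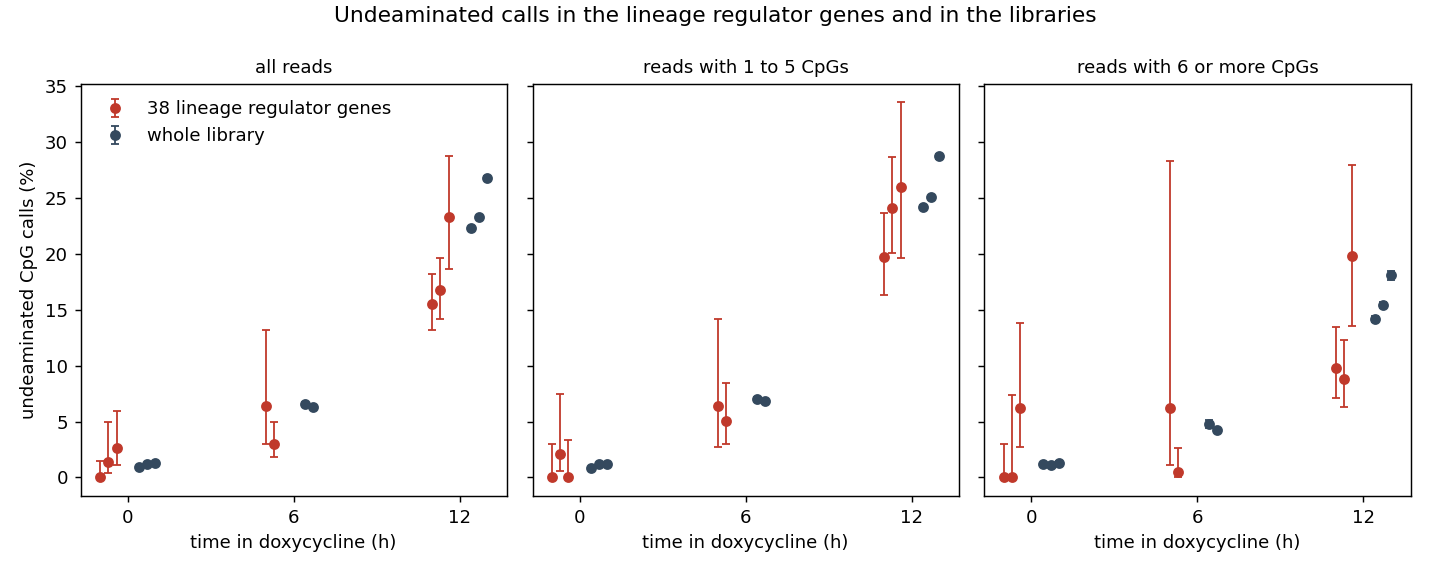
Undeaminated CpG calls (%) against time in doxycycline (h) for the 38 lineage regulator genes (red) and the whole library (blue), 1 point per library with its 95% Wilson interval, for all reads, reads with 1 to 5 CpGs and reads with 6 or more. At 12 h all 3 red points lie below their libraries over all reads and on sparse reads, while on dense reads library C lies above at 19.8%.

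The first question is whether the low gain belongs to CpG-dense reads alone. On sparse reads the genes came to 0 of 124, 2 of 94 and 0 of 111 undeaminated calls at 0 h, and to 5 of 78 and 13 of 256 at 6 h. At 12 h the counts were 91 of 461 in A (19.7%, Wilson interval 16.4 to 23.6%), 91 of 377 in B (24.1%, 20.1 to 28.7%) and 39 of 150 in C (26.0%, 19.6 to 33.6%). Sparse reads of the whole libraries came to 24.2, 25.1 and 28.7%. All 3 libraries thus had the genes lower on sparse reads too, with differences of -4.46, -0.916 and -2.72 points, and in A the interval lay below the library level while in B and C it held it. The mean was 23.3% ± 3.21 for the genes and 26.0% ± 2.40 for the libraries (SD, n = 3), a difference of -2.70 points ± 1.77. The gain from 0 to 12 h on sparse reads was 22.6 points, 90.8% of the libraries' 24.9. The difference was close to 0 in 2 of the 3 runs, at -0.122, -5.55 and -0.379 points in runs 1, 2 and 3. With the limit moved so that sparse reads hold fewer than 4 CpGs, it turned to 0.479 points.

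On dense reads the genes were lower in libraries A and B only. At 12 h they had 33 of 336 undeaminated calls in A (9.82%), 31 of 351 in B (8.83%) and 23 of 116 in C (19.8%), where the libraries had 14.2, 15.4 and 18.1%. The counts rest on 35, 35 and 15 reads. The mean was 12.8% ± 6.08 for the genes and 15.9% ± 2.00 for the libraries (SD, n = 3), and the difference of -3.08 points ± 4.31 was smaller than its own spread. Its direction turned to 3.18 points when 1 random call per read was kept and to 0.824 when each gene had the same weight. With each read given the same weight the difference was -4.18 points, and with the limit at 4 CpGs per read it was -6.82. Within runs 1, 2 and 3 it was -0.295, -5.91 and -11.5 points. At 6 h 1 of 16 dense calls was undeaminated in A and 1 of 209 in B. The gain from 0 to 12 h on dense reads was 10.7 points, 73.1% of the libraries' 14.7. It includes the untreated Sox1 read, which holds all 5 undeaminated dense calls at 0 h. The genes' dense level at 0 h, 2.08% ± 3.61 (SD, n = 3), thus rests on that read alone. Without that read the gain over all reads was 18.1 points in place of 17.2.

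A larger share of the genes' calls lay on dense reads, which gained less 5hmC in the libraries as a whole. Dense reads held 42.2, 48.2 and 43.6% of the genes' calls at 12 h, against 18.8, 18.1 and 18.1% in the libraries, and the ranges were far apart. The difference from the library was split by arithmetic into a part from this make-up, at the library's own levels of sparse and dense reads, and the parts within each class. The make-up gave -2.34, -2.90 and -2.72 points in A, B and C, 34.6, 44.2 and 77.7% of the whole difference. On average it was -2.65 points ± 0.286 (SD, n = 3) of the -5.60. Lower levels within sparse reads gave -1.53 ± 1.05 and within dense reads -1.42 ± 2.00. With 2 classes the make-up varied less between libraries than the parts within classes. With 7 classes of CpGs per read, the make-up came to -2.80, -4.74 and -1.38 points in A, B and C, and -3.95, -1.82 and -2.12 were left. The means were -2.97 ± 1.69 for the make-up and -2.63 ± 1.16 for what was left (SD, n = 3), so the make-up then varied more.

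Reads were then followed class by class. At 12 h the means of the genes were close to the library's on reads with few CpGs: 26.2% ± 7.18 against 25% on reads with 1 CpG, 27.8% ± 10.7 against 26.0% with 2, and 25.02% ± 4.18 against 26.8% ± 2.50 with 3 (SD, n = 3 each). In library A the genes were low with 2 CpGs (18.5% against 24.2%) and with 3 (20.2% against 24.9%). With 2 CpGs the genes were above the library in B and C, and with 3 in B only. On reads with 4 to 5 CpGs they had 18.2, 23.1 and 12.7% in A, B and C, below the library in all 3, with a mean of 18.03% ± 5.21 against 26.3% ± 2.18. That class holds 71 of 370 calls on 85 reads and is the only sparse class in which the genes were low in all 3 libraries. On reads with 6 to 7 CpGs the genes were again at the library level, with 24.5% ± 1.93 against 24.4% ± 2.52. Reads with 8 to 10 CpGs had 8.82, 3.41 and 14.3%, a mean of 8.84% ± 5.44 against 17.9% ± 2.19, from 18 of 232 calls on 27 reads. On reads with 11 or more CpGs the libraries were at 6.11% ± 1.45, and the genes spread from 1.33% in A through 7.32% in B to 18.2% in C. The low classes, 4 to 5 and 8 to 10 CpGs, did not adjoin, and the class between them was not low.

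**Figure D2:**
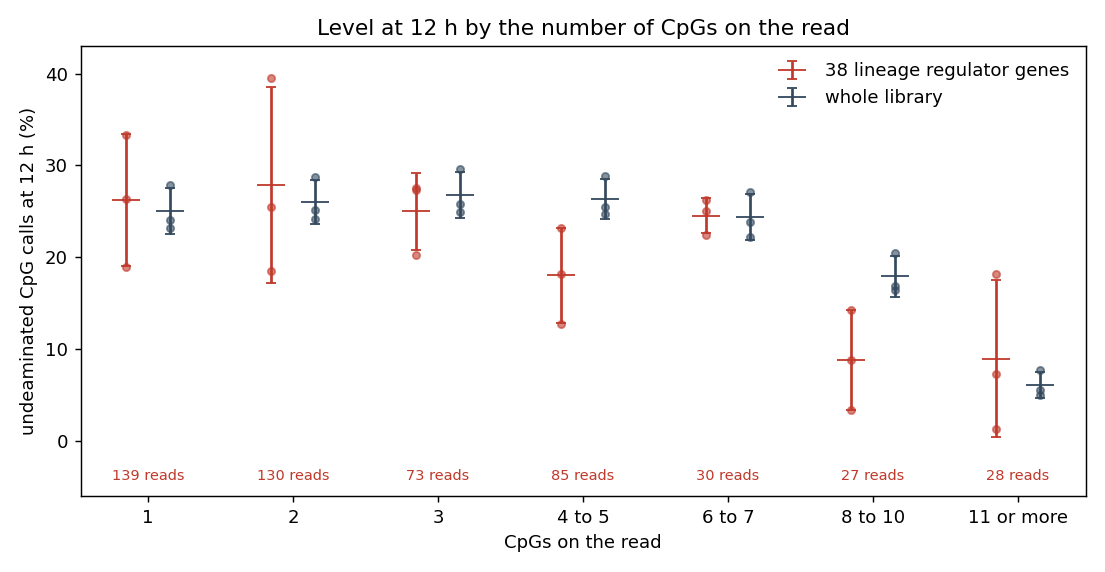
Undeaminated CpG calls at 12 h (%) by the number of CpGs on the read for the 38 lineage regulator genes (red) and the whole library (blue). Points are the 3 libraries, bars the mean ± SD, and the numbers along the base count the genes' reads. The means of the genes lie below the library's at 4 to 5 and at 8 to 10 CpGs and close to them at 1 to 3 and at 6 to 7.

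Dense reads were then divided by their distance from gene ends. Within 1 kb of an end of any protein-coding gene, dense reads of the lineage regulators had 19 of 182 undeaminated calls on 19 reads at 12 h, 8.11, 10.9 and 18.8% in A, B and C. Their mean of 12.6% ± 5.52 was above the library's 5.83% ± 1.27 for such reads (SD, n = 3). The make-up differed here too: 89 of the genes' 182 calls lay on reads with 11 or more CpGs, but 49283 of the library's 78085. Of the 19 undeaminated calls, 7 lay on 1 Meis1 read of library B, whose 7 calls were all undeaminated. Without it, a setting added after seeing the data, the genes in library B had 3 of 85 (3.53%), below the 5.46% of such reads in the whole library, and their mean was 10.1% ± 7.81. Reads with 11 or more CpGs near ends came to 0 and 2.99% for the genes in A and B, from 2 of 89 calls on 6 reads. The library had 2.76 and 3.51% in A and B, and library C held no such calls of the genes. Farther from gene ends the dense reads of the genes had 68 of 621, or 10.3, 8.11 and 20.0%, a mean of 12.8% ± 6.33. The library there had 19.7, 21.4 and 24.9%, a mean of 22.0% ± 2.62, so the genes were lower in 3 of 3. The gap away from gene ends differed between classes of CpGs per read. With 6 to 7 CpGs the genes had 21.9% ± 9.01 there and the library 26.7% ± 2.79. With 8 to 10 CpGs the genes had 7.36% ± 4.35, from 10 of 161 calls on 19 reads, and the library 23.5% ± 2.87. With 11 or more CpGs the genes had 9.72% ± 8.31 and the library 9.77% ± 1.64. That class held 288 of the genes' 621 calls but only 29610 of the library's 129985. The gap over all dense reads away from ends thus includes a difference in make-up. On sparse reads the differences were smaller: 21.0% ± 9.23 against 22.2% ± 2.32 near ends, and 23.5% ± 2.62 against 26.2% ± 2.41 away from them. Away from ends the genes were lower in each library on sparse reads too, with 20.8, 23.7 and 26.1% against 24.4, 25.3 and 28.9%.

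Other developmental regulators also had low dense levels away from gene ends. A list of 83 further such genes, built in the same way, had 14.6, 10.6 and 11.9% there at 12 h, a mean of 12.4% ± 2.06 (SD, n = 3). Within 1 kb of ends their dense reads had 3.72, 10.8 and 0% in A, B and C, a mean of 4.83% ± 5.47. Their overall level was 15.8% ± 0.476, below the 18.5% ± 4.17 of the 38 genes, with 56.3% ± 3.19 of their calls on dense reads. On sparse reads the 83 genes reached 23.8% ± 2.26, next to 23.3% ± 3.21 for the 38, and on dense reads 9.69% ± 1.01, next to 12.8% ± 6.08. Over all reads, on sparse reads and on dense reads, the lists differed by less than the SD of the 38 genes. For all protein-coding genes with their flanks, dense reads farther than 1 kb from ends had 21.9% ± 2.42. Reads with 11 or more CpGs held 602 of the 1356 dense calls of the 83 genes there, but 19866 of 83478 for all protein-coding genes.

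**Figure D3:**
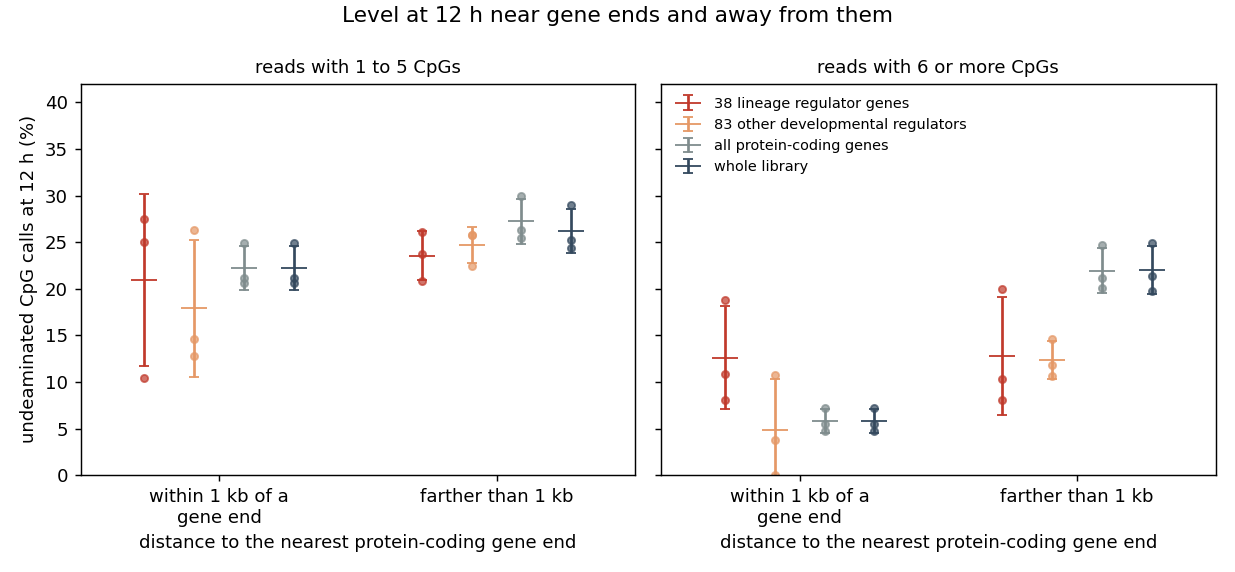
Undeaminated CpG calls at 12 h (%) within 1 kb of a protein-coding gene end and farther away, for the 38 lineage regulators, 83 other developmental regulators, all protein-coding genes and the whole library, on sparse (left panel) and dense reads (right panel). Points are the 3 libraries and bars the mean ± SD. On dense reads away from gene ends the regulator lists have means of 12.8 and 12.4%, against 22.0% in the library. Reads with 11 or more CpGs make up a larger share of the regulators' dense calls there than of the library's.

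Within the windows of the 38 genes, the outer flanks were compared with the bodies. On sparse reads at 12 h, the flanks beyond 1 kb had 25.5, 34.6 and 28.1% in A, B and C (73 of 254 calls), and the bodies had 18.1, 20.8 and 25.5% (133 of 650). The flanks were higher in each library, with means of 29.4% ± 4.65 for flanks and 21.5% ± 3.69 for bodies (SD, n = 3). At 6 h the order was the other way on sparse reads, with 6.25 and 3.75% in flanks and 7.84 and 5.70% in bodies in A and B. In the 83 other regulators it was also the other way at 12 h, with 22.8% ± 2.47 in flanks and 25.1% ± 1.51 in bodies. Reads within 1 kb of the genes' own ends had 15 of 84 (17.9%). With the flanks left out, the difference of the genes from their libraries on sparse reads was -4.72 points in place of -2.70. Flanks can hold other genes, such as Cat beside Elf5, Elp4 beside Pax6, Neil2 beside Gata4 and Zic4 beside Zic1, whose calls cannot be told apart from those of the listed gene.

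Each of the 38 genes had calls at 12 h, between 4 and 139 with a median of 34.5, and 36 had at least 10. Of these 36, 25 lay below the pooled library level of 23.5% (69.4%), where 56.3% of 15711 protein-coding genes with as many calls did. Their median was 20.2% (0 to 40.0%), against 21.7% for those genes. Set against the level expected from the CpGs on each gene's own reads, 23 of 36 lay below (63.9%), with 54.0% of the protein-coding genes. On sparse reads 17 of 27 genes with 10 calls lay below 25.3% (63.0%), against 50.0% of protein-coding genes, and on dense reads 19 of 24 lay below 15.4% (79.2%), against 66.3%. Among the 36 genes, those with more of their calls on dense reads had lower levels, with Pearson's r = -0.521 and Spearman's rho = -0.525. That is a description across genes that share the 3 libraries. In those libraries dense reads as a whole had 15.9% and sparse reads 26.0%, and the correlation is not given for all protein-coding genes.

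**Figure D4:**
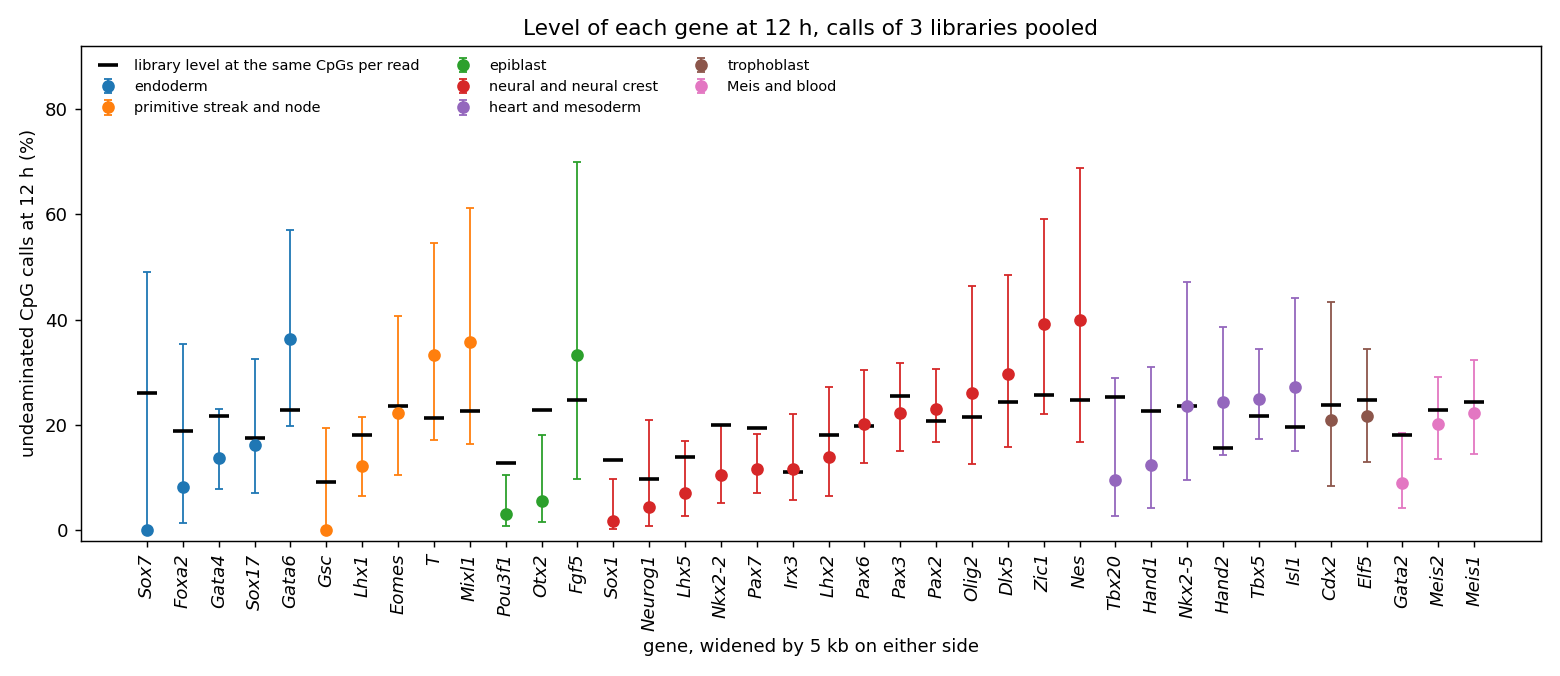
Undeaminated CpG calls at 12 h (%) of each of the 38 genes, pooled over 3 libraries, with 95% Wilson intervals, grouped and coloured by role. Black bars mark the library level at the same numbers of CpGs per read. Sox1, Pou3f1, Otx2 and Pax7 have intervals wholly below their bars, and the other intervals hold theirs. The intervals treat calls on 1 read as independent, which they are not, and Sox1, Pou3f1 and Otx2 rest on 8, 10 and 8 reads.

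By role, the endoderm genes had 9.09, 17.6 and 30.8% undeaminated calls in 12 h libraries A, B and C, 25 of 149 in all (16.8%). Gata4, a zinc finger factor of endoderm and heart (chromosome 14, 63198914 to 63271712), had 0 of 11, 0 of 7 and 0 of 14 calls undeaminated at 0 h, 0 of 5 and 0 of 25 at 6 h and 3 of 40, 5 of 24 and 3 of 16 at 12 h. All its 12 h libraries were above all others. Gata6, which drives primitive endoderm, had 8 of 22 at 12 h. Sox17, a definitive endoderm factor, had 5 of 31, Foxa2, a pioneer factor of endoderm and node, 1 of 12, and Sox7, an endoderm and endothelial factor, 0 of 4, too few to set a level.

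Primitive streak and node genes had 12.1, 36.0 and 25% at 12 h, 27 of 152 in all (17.8%). T (brachyury), which marks the streak and notochord, had 7 of 21 and the streak homeobox gene Mixl1 5 of 14. Eomes, a T-box factor of streak and trophoblast, had 6 of 27. Lower counts were found in Lhx1, a LIM homeobox gene of node and kidney, with 9 of 74, and in Gsc, an organizer gene, with 0 of 16. Of the 16 Gsc calls 13 lay on dense reads, and the level expected at their numbers of CpGs was 9.15%.

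The epiblast genes had the lowest level of the 7 role groups, 5.45, 6.25 and 5.00% at 12 h in A, B and C. That is 6 of 107 calls (5.61%, Wilson interval 2.60 to 11.7%), where the library level at the same numbers of CpGs per read was 16.8%. The libraries did not hold the same genes: all 20 calls of C were of Otx2, and 45 of the 55 calls of A were of Pou3f1. The 65 calls of Pou3f1 lay on 10 reads, and calls on 1 read are not independent, so the interval is too narrow. On dense reads 1 of 80 calls was undeaminated and on sparse reads 5 of 27 (18.5%). Pou3f1 (Oct6), a POU factor of primed epiblast and glia (chromosome 4, 124657646 to 124660655), had 2 of 65 calls (3.08%), with 0 of 57 on dense reads. Those 57 calls lay on only 5 reads, and the 23 dense calls of Otx2 lay on 3. Otx2, a head organizer and forebrain gene, had 2 of 36 (5.56%, 1.54 to 18.1%) where 22.8% was expected, on 8 reads. Fgf5, a marker of primed epiblast, had 2 of 6.

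The 14 neural and neural crest genes held the most calls, with 15.02, 14.2 and 25.7% undeaminated at 12 h, 137 of 827 in all (16.6%). The Pax genes, paired-box factors, differed among themselves. Pax2, of kidney, eye and midbrain (chromosome 19, 44746601 to 44838269), had 0 of 27, 0 of 3 and 0 of 13 calls undeaminated at 0 h, 0 of 8 and 4 of 52 at 6 h and 12 of 50, 14 of 59 and 6 of 30 at 12 h (23.0% pooled). Its 12 h libraries were above all earlier ones. At 12 h its sparse reads had 28 of 88 (31.8%) and its dense reads 4 of 51 (7.84%). Pax7, of neural crest and muscle precursors (chromosome 4, 139737059 to 139833530), had 0 of 42, 0 of 12 and 0 of 22 at 0 h, 0 of 6 and 1 of 28 at 6 h and 5 of 57, 5 of 47 and 5 of 25 at 12 h (11.6%). Its sparse reads had 10 of 89 at 12 h (11.2%), where 25.5% was expected from their CpGs. Its dense reads had 5 of 40 (12.5%), where 5.93% was expected, and 4 of these 5 calls came from library C. All 3 of its 12 h libraries were above all earlier ones.

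Pax3, of neural crest and muscle (chromosome 1, 78101267 to 78197136), had 0 of 17, 0 of 13 and 0 of 9 calls undeaminated at 0 h, 3 of 6 and 2 of 28 at 6 h and 9 of 39, 6 of 37 and 6 of 18 at 12 h. The 6 h library A, on 6 calls, was above the 12 h libraries. Pax6, the eye and forebrain regulator (chromosome 2, 105668896 to 105698410), had 0 of 8, 0 of 3 and 0 of 4 at 0 h, 0 of 3 and 0 of 16 at 6 h and 4 of 19, 6 of 36 and 6 of 24 at 12 h, when every library was above the earlier ones. Sox1, an early neuroectoderm factor, had 1 of 54 at 12 h (1.85%, Wilson interval 0.328 to 9.77%), where 13.3% was expected from its reads, and 46 of these calls came from library A. The 54 calls lay on 8 reads, 38 of them on 3 dense reads, so the interval is too narrow. Among homeobox genes of brain and spinal cord, Lhx5 had 4 of 56, Lhx2 6 of 43, Nkx2-2 7 of 67 and Irx3 7 of 60. The Irx3 level of 11.7% was next to the 11.1% expected from its reads, 86.7% of whose calls were on dense reads. Of the basic helix-loop-helix genes, Neurog1, a proneural gene, had 1 of 23 and Olig2, of motor neurons and oligodendrocytes, 6 of 23. The highest were Nes with 4 of 10, the zinc finger gene Zic1 with 9 of 23 and Dlx5, a homeobox gene of forebrain and crest, with 8 of 27.

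Heart and mesoderm genes had 23.9, 20.8 and 23.8% at 12 h, 53 of 236 in all (22.5%). Their dense reads had 18 of 89 calls undeaminated (20.2%), where 13.3% was expected. Of these 18, 6 came from Hand2 in library B (6 of 11 dense calls) and 6 from Isl1 in library A (6 of 15). The 22 dense calls of Hand2 lay on 2 reads, and library C had 0 dense calls in this group. Tbx5, a T-box factor of heart and forelimb, had 24 of 96, Hand2, of second heart field and limb, 11 of 45 and Isl1, of second heart field and motor neurons, 9 of 33. Nkx2-5, an early cardiac homeobox gene, had 4 of 17, Hand1, of heart and trophoblast, 3 of 24 and Tbx20, a cardiac T-box factor, 2 of 21. The trophoblast genes had 16 of 74 (21.6%). Elf5, an ETS factor of trophoblast stem cells (chromosome 2, 103412098 to 103450989), had 0 of 12, 0 of 8 and 0 of 8 at 0 h, 0 of 3 and 0 of 17 at 6 h and 4 of 22, 8 of 30 and 0 of 3 at 12 h. Library C at 12 h, with 3 calls, was at 0 like the earlier ones. Cdx2, the caudal factor of trophectoderm, had 4 of 19.

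The Meis genes and Gata2 had 19.4, 16.5 and 17.9% at 12 h, 44 of 246 in all (17.9%). Meis1 and Meis2 are homeobox cofactors of Hox proteins, and Meis1 had 18 of 81 calls. Meis2 (chromosome 2, 115861264 to 116067537) had 0 of 17, 0 of 10 and 0 of 10 at 0 h, 0 of 3 and 0 of 12 at 6 h and 14 of 56, 4 of 32 and 2 of 11 at 12 h, when every library was above the earlier ones. Gata2, a factor of blood stem cells and trophoblast (chromosome 6, 88193891 to 88207032), had 0 of 11, 0 of 9 and 0 of 6 at 0 h, 0 of 3 and 0 of 13 at 6 h and 4 of 18, 2 of 45 and 0 of 3 at 12 h. Library C at 12 h was at 0 like the earlier ones. At 12 h its 42 calls on dense reads were all deaminated, while 6 of 24 on sparse reads were not (25%).

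Single genes were tested with limma over the 2296 genes that had 3 calls or more in each of the 8 libraries, among them 8 of the 38. By adjusted p 7 of the 8 gained 5hmC from 0 to 12 h, where 90.0% of all genes tested did. The gains ran from 11.4 points ± 2.65 in Pax7 (SE, adjusted p = 0.00355) through 13.6 ± 3.67 in Gata4 (adjusted p = 0.00761) to 23.1 ± 2.50 in Pax2 (adjusted p = 0.000107). Pax6, Meis2, Elf5 and Pax3 lay between 20.1 and 22.2. Gata2, at 9.24 points ± 4.33, did not pass (adjusted p = 0.0705). All genes share the rise of their library, which the fit treats as independent, so the p-values of gains may be too small.

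Against the gain of the library, 0 of the 8 passed on either side, where 1.92% of the genes passed as below and 1.05% as above. The lowest were Gata2 with -12.9 points ± 4.51 (SE, limma adjusted p = 0.241), Pax7 with -11.0 ± 2.40 (adjusted p = 0.0544) and Gata4 with -8.77 ± 3.48 (adjusted p = 0.297). These 3 had an unadjusted p under 0.05, as had 5.79% of all genes on that side, and 0 of the 8 had one above the library gain, where 9.19% of genes did. Pax6, Meis2, Pax3, Elf5 and Pax2 lay between -2.88 and 0.46 points, with SE of 2.74 to 6.99. The median of the 8 was -2.30 points, and that of all genes 0.97. Without 12 h library C Pax7 passed at -12.1 points (adjusted p = 0.0203), and without 12 h library A Gata2 passed at -18.3 (adjusted p = 0.0164). Without 12 h library B Gata2 was at -2.45 points (adjusted p = 0.857), and without 12 h library A Gata4 was at -3.49 (adjusted p = 0.600). Standardised for CpGs per read, Pax7 was at -6.92 points (adjusted p = 0.290), Gata2 at -7.68 (adjusted p = 0.509) and Gata4 at -6.92 (adjusted p = 0.367). With 1 call per read Pax7 was at -6.59 points (adjusted p = 0.650).

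On sparse reads 6 of the 38 genes could be tested among 2008, and again 0 passed, where 1.94% of the genes passed below and 0.697% above. Pax7 had -12.9 points ± 2.91 (SE, limma adjusted p = 0.0615), and it was the only 1 of the 6 with an unadjusted p under 0.05, where 5.43% of all genes had one below and 8.12% above the library gain. The gains of all 6 passed on sparse reads, as did 91.6% of the genes. Gata4 had -7.99 ± 3.66 (adjusted p = 0.390). Elf5, Pax3 and Meis2 lay between -4.996 and -1.09 points, and Pax2 at 7.37 ± 4.72 (adjusted p = 0.565). Between 0 and 6 h, 0 of the 8 genes deviated from the library over all reads, as did 0 of the 2296, and at an unadjusted p under 0.05 it was 0 of the 8, with 2.74% of all genes below and 4.88% above. Between 6 and 12 h 0 of the 8 passed, where 1.74% of genes passed below and 0.305% above, and Pax7 had -8.68 points ± 3.45 (adjusted p = 0.370).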

How the data were processed

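CpG calls of 8 ACE-seq libraries were used, 3 at 0 h, 2 at 6 h and 3 at 12 h of doxycycline, grouped by their titles. The authors deposited 1 line per CpG and read with a letter for undeaminated or deaminated, written by Bismark's methylation extractor (version 0.22.3) per the file headers. Build GRCm38, Bismark and Trim Galore are named in the submitters' processing notes. How reads were trimmed, and whether duplicates were removed, is not given in the sources used here. Of the calls inside promoter windows of the gene table, 99.9% lay on a CG of its sequence. Libraries held 75023 to 485941 calls.

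The gene list, the comparison list of 83 other developmental regulators and the tests were chosen with earlier results of these data known. A level is the percentage of calls that are undeaminated. CpGs per read were counted from the calls sharing a read name. Levels expected from CpGs per read are the library's levels in 7 classes (1, 2, 3, 4 to 5, 6 to 7, 8 to 10, 11 or more), weighted by the calls of the genes in each. Levels were averaged over libraries with their SD. Wilson intervals at 95% cover counting error only, and calls on 1 read are not independent.

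Genes with 3 calls or more in each library entered a limma fit (limma 3.58.1, R 4.3.3) of the level minus the library's level or, for gains, of the level itself. Weights were the calls over the library level's binomial variance, with 1 factor of 3 groups over all 8 libraries and Benjamini-Hochberg adjustment over all genes tested, at a threshold of 0.05. The script was tested on simulated data. Members with at least 3 calls in every library are given with their values in each, the others by their counts at 12 h. Gene spans come from a RefSeq table of GRCm38.p6 that was used without exons. Sequences are from RefSeq, build GRCm38.p6, and no sequence of the 1 gene on chromosome 18 is shown.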

Additional observations from a re-analysis of the deposited data

How the results depend on the processing

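The difference of the 38 genes from their library at 12 h, -5.60 points over all reads, was -0.751 with 1 call per read, -2.26 with each read given the same weight, -2.63 against 7 classes of CpGs per read and -3.16 when these were also split by nearness to gene ends. It was -2.90 and -8.55 within runs 1 and 2, and -6.65 to -5.03 when each 12 h library was left out. On sparse reads, -2.70 points became -4.72 without flanks, -4.69 with flanks of 1 kb, -0.584 with 1 call per read, -0.830 with each read given the same weight, 0.479 with the limit at 4 CpGs, -0.122, -5.55 and -0.379 within the runs, and -3.59 to -1.82 when each library was left out. On dense reads, -3.08 points became 3.18 with 1 call per read, 0.824 with each gene given the same weight and -11.5 within run 3. The dense difference was -4.18 with each read given the same weight, -6.82 with the limit at 4 CpGs and -5.48 to -1.31 when each library was left out. The gain of 17.2 points was 22.7 with 1 call per read and 14.8 to 18.7 when each library was left out. Without the untreated Sox1 read the gain was 18.1 points. The settings with 7 classes, with each read weighted alike and without the Sox1 read were added after seeing the data. The cause of these differences was not tested.

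Over all reads 24 genes passed above the library gain and 44 below. Those above were 47 with at least 1 call in every library, 8 with at least 10, 8 without flanks, 5 without weights, 6 with 1 call per read, 7 with the replicate letter as a block (replicate block), 11 when standardised for CpGs per read, and 4 to 50 when each library was left out. Those below were 9 without flanks and 41 to 58 when each library was left out. On sparse reads 14 passed above and 39 below. Those above were 2 with at least 10 calls, 0 without flanks, 0 without weights, 4 with 1 call per read, 8 with the replicate block and 1 to 25 when each library was left out. Those below were 5 without flanks and 37 to 45 when each library was left out. The count of the 38 genes passing below was 0, but 1 (Pax7, limma adjusted p = 0.0457) with at least 1 call in every library, and 0 to 1 when each library was left out. Across genes, with group means removed, same-letter libraries correlated by -0.0512 to -0.00420 and libraries of different letters by -0.0193 to 0.0512. Levels of single genes rest on few calls, so these values cannot show whether the letters pair libraries.

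Of 103 alternative values of single genes, 13 turned sign and 3 newly passed. Pax2 was -0.55 without flanks, -0.44 without weights, -0.30 with the replicate block and -0.87 to 2.01 when each library was left out. Pax3 was 1.19 without weights, 0.27 with the block and -1.94 to 3.50 when each library was left out. Pax6 was 1.62 when standardised. Elf5 ran from -5.50 to 1.90 and Meis2 from -9.23 to 2.07 when each library was left out. Pax7, Gata2 and Gata4 stayed below 0 under every alternative in which they had enough calls to be fitted. With 1 call per read neither Gata2 nor Gata4 could be fitted, and without flanks Gata2 could not. The number of calls limits all values of single genes: none of the 38 had 10 calls in every library.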

Other observations

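Single dense reads of the lineage regulators were examined, a view that was chosen after seeing the data. At 12 h 46 of 85 dense reads carried no undeaminated call (54.1%). In the whole libraries 48.1% of dense reads carried none, and 50.8% would at the numbers of CpGs that the genes' reads had. The mean over libraries was 50.2% ± 14.6 for the genes and 47.2% ± 3.36 for the libraries (SD, n = 3), less apart than the spread. Reads with 50% or more of their calls undeaminated made up 8 of 85 for the genes (9.41%) and 15.6% of all dense reads. Among the 8 was a Meis1 read in 12 h library B with 7 of 7 calls undeaminated. At 6 h 22 of 24 dense reads of the genes carried no undeaminated call, against 77.7% of all dense reads. The means over libraries at 6 h were in the other order, 72.7% ± 32.1 for the genes and 76.9% ± 1.97 for the libraries (SD, n = 2). Library A had only 2 dense reads of the genes at 6 h, and library B had 22. At 0 h it was 30 of 31, against 94.9% of all dense reads.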
